A study of Homo sapiens with 4 samples.

Results

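The SOX genes encode transcription factors that bind DNA through a shared HMG box, and 10 of them were followed here through 4 RNA sequencing libraries that trace human embryonic stem cells on their way to blood: SOX2, SOX3, SOX4, SOX7, SOX9, SOX11, SOX12, SOX15, SOX17 and SOX18. They were taken by gene symbol from tables of 17630 genes, and all 10 were found. The cells were the established line H1. The 4 groups were undifferentiated H1 cells (hESC), day 2 cells sorted as APLNR+ (MES, mesoderm stage), day 4 cells sorted as CD31+CD34+ (HEP) and day 7 cells sorted as CD31+CD43+ (HPC). Culture ran on Custom mTeSR1 medium with activinA at 40 ng/ml and BMP4 at 50 ng/ml for 2 days, then with VEGF at 40 ng/ml and bFGF at 50 ng/ml for 2 days, then with VEGF, bFGF and SB-431542, which blocks activin type receptors, for 3 days. All rest on 1 cell line and 1 library per group. There is thus no replicate error and no test over samples, and it cannot be said which neighbouring levels differ beyond their spread. Values are the authors' normalised expression signal, of unknown sequencing depth. In these sorted bulk samples, fewer cells of a type and less RNA per cell cannot be told apart.

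SOX proteins fall into subgroups by the sequence of their HMG box, and members of a subgroup often stand in for each other. SOX2 and SOX3 (SOXB1) keep pluripotent and neural precursor cells in their state, and SOX2 binds DNA beside the POU factor POU5F1 in embryonic stem cells. SOX7, SOX17 and SOX18 (SOXF) act in vessel formation. SOX17 also specifies endoderm, and in the mouse it acts in the endothelium from which blood stem cells arise. SOX4, SOX11 and SOX12 (SOXC) are found in many progenitors, SOX9 (SOXE) is best known from cartilage and sex determination, and SOX15 is the lone SOXG gene.

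Promoter sequence was held for 4 of the 10 genes by the RefSeq table used here (build GRCh38.p14). All 4 are shown. They are the SOXB1 pair that was lost after the stem cell stage and a SOXC pair that was still present on day 7. No SOXF gene is among them. Each run gives the 250 bases before the annotated start, on the gene's own strand, 5′ to 3′. Capitals mark the CCAAT box, which reads ATTGG on the opposite strand, and the octamer ATGCAAAT, the element that POU factors such as POU5F1 bind. The SOX2 run is chr3:181711675-181711924 on the plus strand, the SOX3 run chrX:140505070-140505319 on the minus strand, the SOX4 run chr6:21593501-21593750 on the plus strand and the SOX12 run chr20:325302-325551 on the plus strand.
SOX2: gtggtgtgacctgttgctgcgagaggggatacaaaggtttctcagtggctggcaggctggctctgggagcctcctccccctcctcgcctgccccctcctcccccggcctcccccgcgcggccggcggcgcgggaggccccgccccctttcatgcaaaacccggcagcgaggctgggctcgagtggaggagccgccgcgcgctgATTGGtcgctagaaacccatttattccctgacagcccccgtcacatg
SOX3: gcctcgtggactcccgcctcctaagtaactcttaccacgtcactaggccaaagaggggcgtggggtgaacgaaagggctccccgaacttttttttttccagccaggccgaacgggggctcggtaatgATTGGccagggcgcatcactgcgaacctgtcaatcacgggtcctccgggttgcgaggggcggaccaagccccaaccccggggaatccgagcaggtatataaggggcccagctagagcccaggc
SOX4: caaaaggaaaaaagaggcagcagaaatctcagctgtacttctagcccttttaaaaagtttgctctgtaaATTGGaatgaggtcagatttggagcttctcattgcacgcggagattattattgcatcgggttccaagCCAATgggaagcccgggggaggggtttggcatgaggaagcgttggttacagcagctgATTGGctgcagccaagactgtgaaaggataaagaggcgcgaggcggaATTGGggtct
SOX12: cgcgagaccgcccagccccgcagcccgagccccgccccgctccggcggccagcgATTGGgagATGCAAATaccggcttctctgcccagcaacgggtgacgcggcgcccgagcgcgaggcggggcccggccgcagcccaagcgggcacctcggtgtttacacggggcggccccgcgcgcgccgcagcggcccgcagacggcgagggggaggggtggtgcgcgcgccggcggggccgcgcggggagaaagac

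A CCAAT box on either strand stood in all 4 of these runs, against 32.0% of 35116 promoter runs of that length, and SOX4 held 4 of them. The octamer was found in the SOX12 run alone among the 4, against 1.63% of all runs. The letters ACAAT, a form of the core of the site that SOX proteins bind, were in 0 of the 4 and in 24.6% of all runs. TATAAA was likewise in 0 of the 4 (10.7% of all runs), and the GC box GGGCGG in 3, those of SOX2, SOX3 and SOX12 (42.6%). All motifs were searched on both strands, as exact letters only. Variant forms were not counted, such as ACAAAG, which the SOX2 run holds, and TATATAAG, which the SOX3 run holds. In these 4 runs the marked CCAAT boxes and the octamer do not overlap. These letters were chosen with the sequences in view and a match is a description of the window only.

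The makeup of the family differed at every stage. As a share of the summed values of the 10 genes, SOXB1 held 52.0% in hESC cells, 0.993% in MES cells, 0.134% in HEP cells and 0.239% in HPC cells. SOXF held 0.248% in hESC cells, 41.7% in MES cells, 63.2% in HEP cells and 25.5% in HPC cells. SOXC held 46.8%, 54.3%, 32.6% and 72.7% in the same order. Thus SOX2 was the highest SOX gene in hESC, SOX17 in MES and in HEP, and SOX4 in HPC, always with SOX4 among the top pair. The summed value itself was 116.8 in hESC cells, 61.45 in MES cells, 67.22 in HEP cells and 20.95 in HPC cells, so the day 7 cells had the lowest total. These shares do not depend on how libraries are scaled to each other. They do set genes of different length side by side. The measure deposited is not named, and RSEM, which the submitters name, gives FPKM or TPM, both scaled by length; the shares hold only if one of them was deposited.

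**Figure D1:**
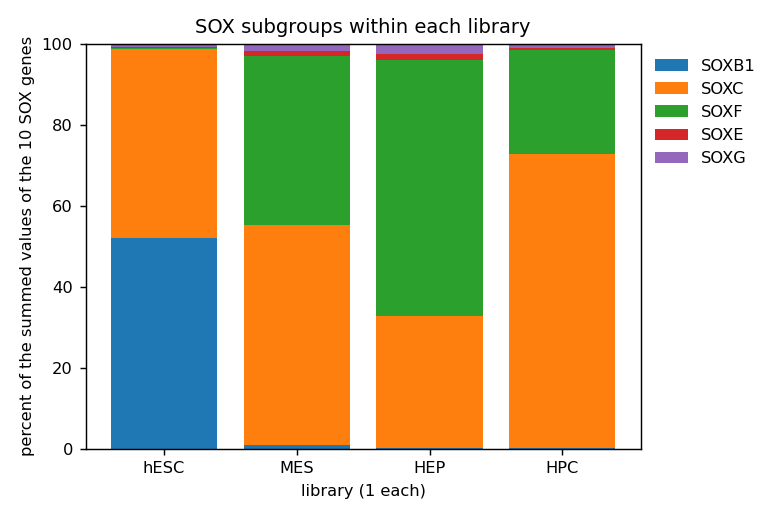
Stacked bars give, for each of the 4 libraries, the percent of the summed deposited values of the 10 SOX genes that falls to each subgroup (1 library per bar, no error). SOXB1 fills 52.0% of the hESC bar and under 1% of the others, and SOXF is at its largest in HEP, at 63.2%.

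SOX2 left the profile at the first step. It stood at 56.7 in hESC cells, 0.41 in MES cells, 0.08 in HEP cells and 0.05 in HPC cells, and its log2 difference of (value + 1), the scale used throughout, was -5.36 in MES against hESC. Only hESC had a value above 1. Of all 17630 genes, 0 had a lower difference in that comparison. SOX3, a close relative of SOX2 that acts early in the neural plate, was at 4.01 in hESC cells, 0.20 in MES cells and 0.01 in HEP cells and was listed at 0 in HPC. It too was at its highest in hESC, but its difference of -2.06 in MES against hESC is not counted as a call, since a gene had to reach 5 in the higher library. SOX1, the remaining SOXB1 gene, reached at most 0.03, in MES. SOX2 lies within an intron of the noncoding gene SOX2-OT on the same strand, and reads from unspliced SOX2-OT RNA cannot be told apart from its own.

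SOX2 was reduced further than nearly all of the pluripotency genes set beside it. In MES it had 0.723% of its hESC value, whereas POU5F1 had 35.9% (568 in MES, against 1582 in hESC) and NANOG, another core factor of pluripotency, had 19.9% (10.7 in MES, against 53.8 in hESC). Among 14 pluripotency genes at 5 or more in hESC, 13 had a larger share of their hESC value left in MES than SOX2, with a median of 25.7%. The exception was FOXD3, a repressor of lineage genes, with 0.175% (0.01 in MES, against 5.71 in hESC). By day 4 POU5F1 was still at 112 in HEP and NANOG at 3.12, beside SOX2 at 0.08. Over the whole list of 20 pluripotency genes, MES had 11 lower and 2 higher than hESC, where 3.70% and 3.79% of all genes were lower and higher, with a median difference of -1.22 against -0.02 over all genes. With the GC trend described below removed, 8 were lower (2.2% of all genes). The NODAL antagonist gene LEFTY1 was among the higher ones (19.9 in MES, against 6.97 in hESC). Of the genes with the widest range on the list, the telomere protein gene TERF1 was at 8.25 in MES and 91.5 in hESC, ZFP42 at 59.8 and 144, and the NODAL co-receptor gene TDGF1 at 165 and 225.

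**Figure D2:**
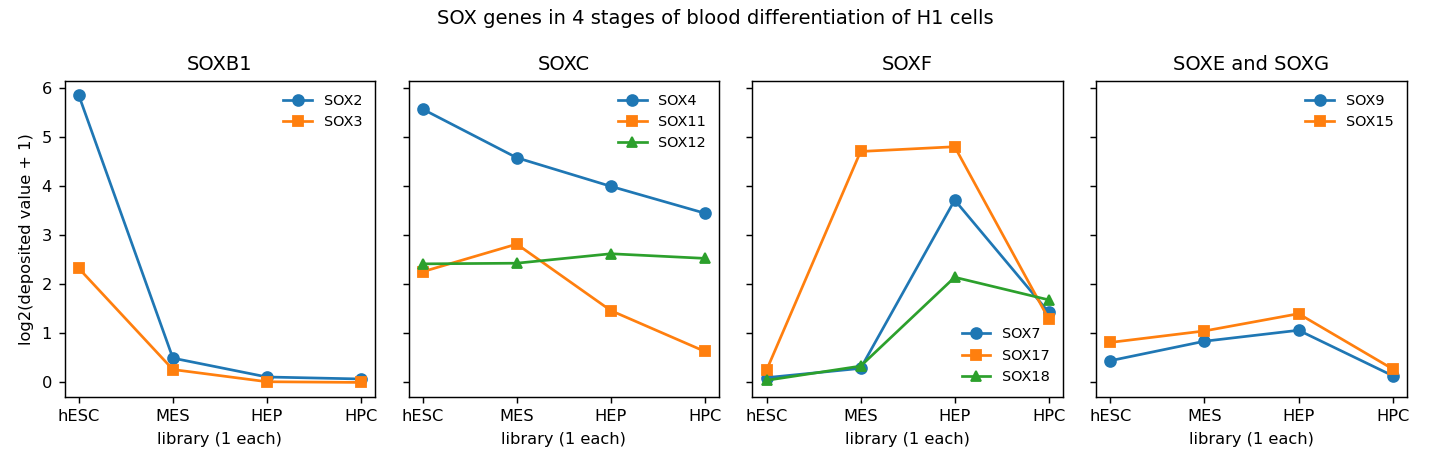
Each panel plots log2(deposited value + 1) in the 4 libraries in stage order for 1 or 2 SOX subgroups (points are single libraries, lines join the values of a gene). SOX2 drops to 0.41 in MES, against 56.7 in hESC, SOX17 appears in MES at 25.1, and SOX7 and SOX18 appear in HEP at 12.2 and 3.42.

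The SOXF genes came up in 2 steps. SOX17 stood at 0.19 in hESC cells, 25.1 in MES cells, 26.9 in HEP cells and 1.45 in HPC cells, so both middle libraries were high and the outer libraries low. SOX7 stood at 0.07 in hESC cells, 0.22 in MES cells, 12.2 in HEP cells and 1.69 in HPC cells. SOX18 stood at 0.03 in hESC cells, 0.26 in MES cells, 3.42 in HEP cells and 2.21 in HPC cells. SOX17 was therefore present at the mesoderm stage, where its relatives were both under 0.3, and the set of 3 was present together at 1 or more in HEP and in HPC alone. The log2 difference of MES against hESC was 4.46 for SOX17, 0.19 for SOX7 and 0.29 for SOX18. In HEP against MES it was 0.10 for SOX17, 3.43 for SOX7 and 1.81 for SOX18, the last under the minimum of 5 for a call.

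On the way to HPC the SOXF genes differed again. SOX17 had 5.38% of its HEP value in HPC (log2 difference -3.51), and SOX7 had 13.9% (-2.29). SOX18 had 64.6% (-0.46), which is within 2-fold. SOX17, the highest SOXF gene in MES and HEP, was in HPC the lowest of the 3. Of 17630 genes, 16 had a lower difference than SOX17 in HPC against HEP, and 106 a lower one than SOX7. Only 5894 of the 17630 were at 5 or more in either library, and genes near 0 in both have differences near 0. An exon of SOX7 overlaps an exon of PINX1, a telomerase inhibitor gene, on the same strand. PINX1 stood at 32.7 in hESC cells, 19.9 in MES cells, 16.5 in HEP cells and 11.5 in HPC cells and so did not share the high value of SOX7 in HEP.

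Most of the endothelial genes called at the second step were higher, and most of those called at the last step were lower. Among 30 endothelial genes, the rule of size called 2 higher and 1 lower at the first step, MES against hESC (3.79% and 3.70% of all genes). The higher ones were the VEGF receptor gene KDR (62.4 in MES, against 24.5 in hESC) and its co-receptor gene NRP1 (14.7 in MES, against 0.55 in hESC). In HEP 17 were higher and 1 lower than in MES (median 1.56, against -0.11 over all genes, of which 3.31% were higher and 13.9% lower). CDH5, which encodes VE-cadherin and is a SOXF target in the mouse, stood at 73.5 in HEP and 0.14 in MES, the receptor gene TIE1 at 59.98 and 0.63, and RASIP1, needed for vessel lumens, at 53.3 and 0.57. SOX17 in MES was thus at 25.1 where CDH5 was at 0.14 and ERG, an ETS factor of endothelium, was listed at 0. In HPC 13 of the 30 were lower and 5 higher than in HEP (3.57% and 3.01% of all genes; median -0.59 on the list). CDH5 had 34.2% of its HEP value left and TIE1 91.1%, between or above the shares of SOX7 and SOX18, while the arterial NOTCH ligand gene DLL4, a SOXF target, was at 21.0 in HPC and 7.54 in HEP. NOTCH1, also tied to SOX17 in arteries, was at 16.9 in HPC and 28.0 in HEP, within 2-fold. Claudin 5, CLDN5, reported as a SOX18 target, was at 5.23 in HPC and 1.57 in HEP. PROX1, the lymphatic regulator downstream of SOX18 in the mouse, stayed at 0.26 or less in every library.

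Since SOX17 is also an endoderm gene, endoderm markers were read beside its value in MES. Among 13 genes of definitive endoderm, MES had 6 higher and 0 lower than hESC (3.79% and 3.70% of all genes); with the GC trend removed 5 were higher (4.1% of all genes). The 6 were CER1, a secreted antagonist (2761 in MES, against 1.92 in hESC), EOMES (56.5 in MES, against 0.07), GATA6 (35.1 in MES, listed at 0 in hESC), GSC (23.1 in MES, listed at 0 in hESC), GATA4 (13.4 in MES, against 0.08) and the chemokine receptor gene CXCR4, an endoderm surface marker (6.24 in MES, against 0.80). FOXA2 and FOXA1, transcription factors of endoderm, were at 0.23 and 0.02 in MES. Their highest values in any library were 0.65 and 0.08, both in HEP. EOMES also stood among 6 markers of primitive streak and mesoderm, with MIXL1 at 57.2 and MESP1 at 65.9 in MES. Of those 6, MES had 5 higher and 0 lower than hESC, beside the same shares of all genes. The endoderm count was not split from that mesoderm stage, and the part of endoderm cells in the level of SOX17 was not tested. The summed level of a narrower set of 5 endoderm markers, FOXA1 and FOXA2 among them, was 1.87 in hESC cells, 0.77 in MES cells, 1.84 in HEP cells and 4.69 in HPC cells, the last mostly transthyretin, TTR, at 3.85. Over all 13 genes it was 8.68 in hESC cells, 2900 in MES cells, 54.9 in HEP cells and 29.2 in HPC cells, nearly all of the MES sum being CER1.

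**Figure D3:**
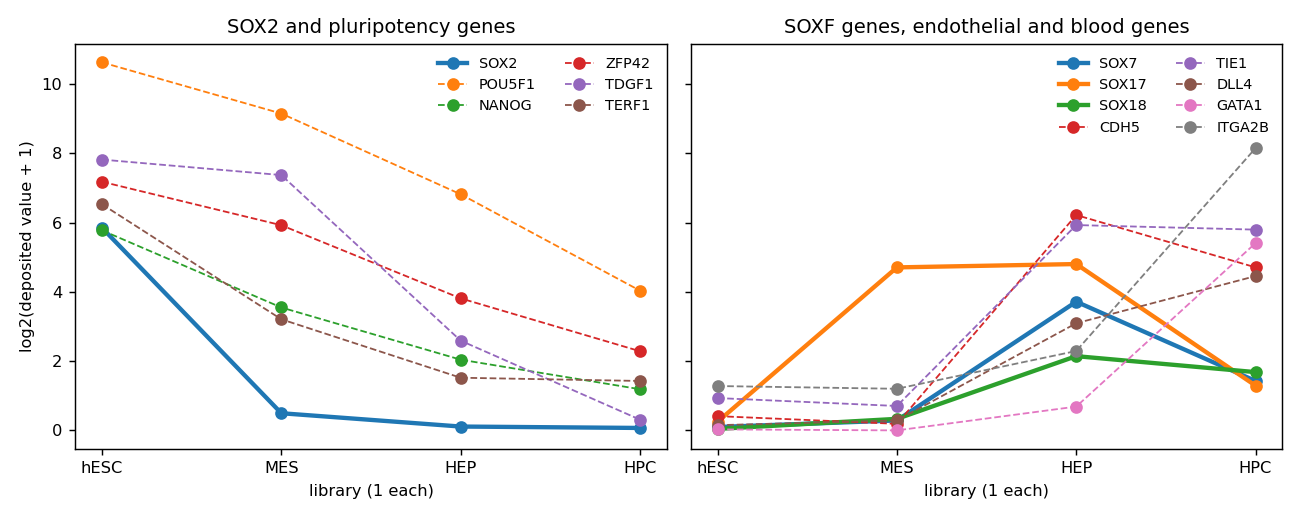
Log2(deposited value + 1) in the 4 libraries for SOX2 with 5 pluripotency genes (left) and for the SOXF genes with endothelial and blood genes (right); thick lines are SOX genes and each point is 1 library. SOX2 is near 0 in MES where POU5F1 is at 568, and SOX17 is up in MES before CDH5, TIE1 and the other SOXF genes.

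Blood genes were called higher at the second and the last step. Of 17 blood genes, 0 were higher in MES than in hESC (3.79% of all genes). In HEP 8 were higher than in MES (3.31% of all genes; median 1.40 on the list, against -0.11). In HPC 9 were higher than in HEP (3.01%) and 1 lower (3.57%), with a median of 1.41 on the list, against 0.00. TAL1, required for blood formation, stood at 50.4 in HEP and 0.08 in MES, and its partner LMO2 at 56.0 and 0.35. The red cell factor GATA1 stood at 41.5 in HPC and 0.61 in HEP, the platelet integrin gene ITGA2B at 283 and 3.90, and the embryonic globin gene HBE1 at 442 and 0.77. RUNX1, which acts in the endothelial to blood transition and which SOX17 represses in the mouse, was at 2.43 in HPC and 2.83 in HEP, within 2-fold, and GFI1, a RUNX1 target that silences endothelial genes, at 52.4% of its HEP value, also within 2-fold.

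SOXC genes did not follow one course. SOX4, which acts in lymphoid and other progenitors, stood at 46.5 in hESC cells, 22.9 in MES cells, 14.97 in HEP cells and 9.92 in HPC cells. Each library was lower than the one before, none by a called amount (log2 differences -0.99, -0.58 and -0.55), while HPC against hESC was past the rule at -2.12. Among all genes of a library its value ranked at percentile 93.0 in hESC and still at percentile 80.3 in HPC. SOX11, a factor of neural and mesenchymal precursors, stood at 3.78 in hESC cells, 6.06 in MES cells, 1.76 in HEP cells and 0.55 in HPC cells, highest in MES. SOX12, in the mouse a weaker activator than its relatives, stood at 4.34 in hESC cells, 4.39 in MES cells, 5.16 in HEP cells and 4.77 in HPC cells and had the smallest range of the 10 genes, a ratio of 1.19 between its highest and lowest library. An antisense RNA overlaps an exon of SOX4 and a noncoding RNA an exon of SOX11, and use of strand is not stated. Of 5 neuronal genes tied to SOXC, only tubulin beta 3, TUBB3, and TEAD2 reached 5. TUBB3 was at 159 in hESC cells, 63.4 in MES cells, 93.0 in HEP cells and 13.9 in HPC cells, and TEAD2 at 54.0, 55.0, 58.1 and 26.8.

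SOX9 and SOX15 were low throughout. SOX9 stood at 0.36 in hESC cells, 0.79 in MES cells, 1.09 in HEP cells and 0.10 in HPC cells, and SOX15, which in the mouse acts in muscle and trophoblast, at 0.76, 1.07, 1.64 and 0.21. Both were highest in HEP and lowest in HPC, at 9.17% and 12.8% of their HEP value. An exon of SOX15 overlaps one of MPDU1 on the opposite strand; MPDU1, at 39.1 in HPC and 39.9 in HEP, did not share that drop. All SOX9 and SOX15 values are under 2, where single reads may weigh heavily at a depth that is unknown.

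The rule of size set few of the 10 genes apart, as 6 of them reached 5 in any library and could be called. A call asked for a log2 difference of 1 or more in size and a value of at least 5 in the higher of the pair. In MES against hESC SOX17 was higher and SOX2 lower, 1 of 10 in each direction, where 3.79% of all genes were higher and 3.70% lower. In HEP against MES SOX7 was higher (background 3.31%) and SOX11 lower (13.9%). In HPC against HEP none were higher (3.01%) and 2, SOX7 and SOX17, were lower (3.57%). In HPC against hESC none were higher (4.66%) and 2, SOX2 and SOX4, were lower (15.8%), so the family's count there is near the background. Among the genes at 5 or more in either library the background was 8.97% higher and 8.76% lower for MES against hESC, 8.08% and 33.9% for HEP against MES, 8.99% and 10.7% for HPC against HEP, and 11.1% and 37.4% for HPC against hESC. The member counts are out of all 10, while this second background covers only genes that could be called. Members at that level were SOX2, SOX4, SOX11 and SOX17 in MES against hESC. In HEP against MES they were SOX4, SOX7, SOX11, SOX12 and SOX17. In HPC against HEP they were SOX4, SOX7, SOX12 and SOX17, and in HPC against hESC SOX2 and SOX4. The comparisons share libraries, and with so few members none of these counts sets the family apart. The median difference over the 10 genes was 0.21 in MES against hESC (-0.02 over all genes), 0.14 in HEP against MES (-0.11; with the GC trend removed -0.18, against -0.02), -0.69 in HPC against HEP (0.00) and -0.42 in HPC against hESC (-0.14).

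Several of the SOX genes are rich in GC, and the values carry a trend with GC content. Over 6368 genes whose mean was at least 5, the log2 difference of HEP against MES followed the GC content of the transcript (Spearman rho 0.707), with a median of 0.42 among 1163 genes at 60% GC or more and -0.30 overall. SOX18 has 69.4% GC, above 99.3% of genes, SOX15 63.3%, SOX3 63.3%, SOX12 62.0% and SOX17 58.3%, while SOX2, SOX4, SOX7 and SOX9 lie between 50.7% and 52.2% and SOX11 has 47.8%. With the trend of each library removed, SOX7 was still higher in HEP than in MES (3.54) and SOX18 was at 1.51, whereas SOX11 was no longer called (-0.87, against -1.36 as deposited). SOX17 was at -0.22 and SOX12 at -0.15 in that comparison (0.10 and 0.19 as deposited), all within 2-fold. The differences of SOX2 and SOX17 in MES against hESC were -5.12 and 4.57 after removal, and those of SOX17 and SOX7 in HPC against HEP -3.32 and -2.35. The subgroup shares were close to those above, with SOXF at 44.8% in MES and 59.7% in HEP.

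**Figure D4:**
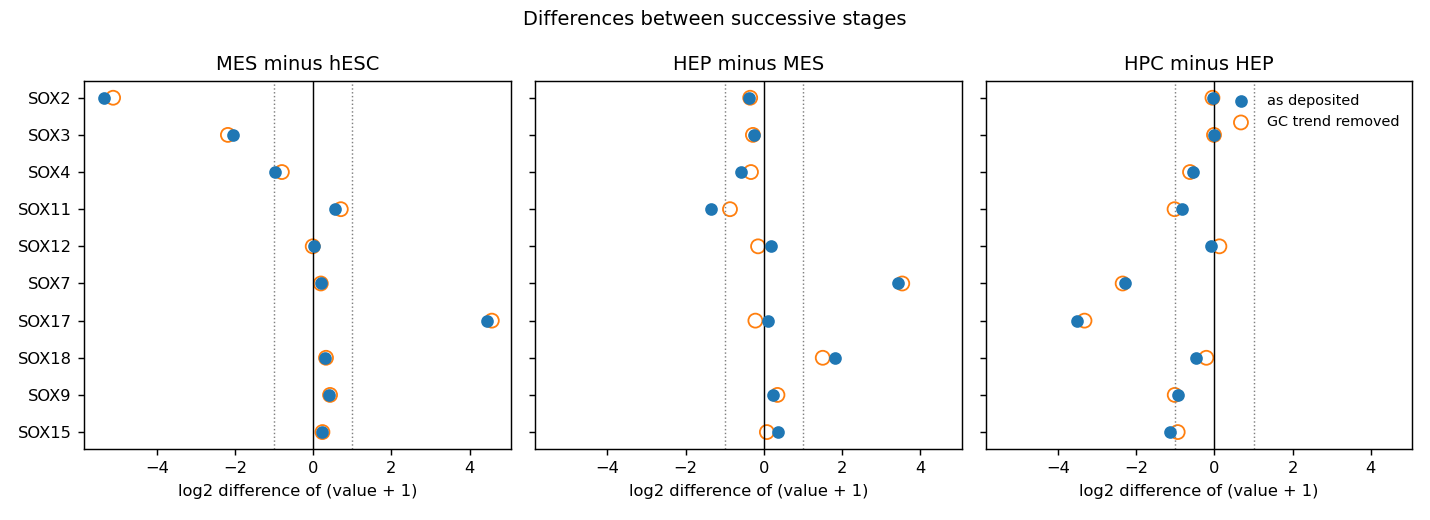
Log2 differences of (value + 1) between successive libraries for the 10 SOX genes, as deposited (filled) and with the GC trend removed (open); dotted lines mark 1 in size, the threshold for a call. SOX2 (-5.36) and SOX17 (4.46) stand out in MES minus hESC, SOX7 (3.43) in HEP minus MES, and SOX17 (-3.51) and SOX7 (-2.29) in HPC minus HEP.

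For each member at 5 or more in any library, the 3 genes with the nearest pattern were sought among 8167 other genes, by Euclidean distance between the centred log2(value + 1) values of the 4 libraries. With 4 points, many genes lie close to any pattern. Nearest to SOX2 were the deubiquitinase gene USP44 (distance 0.634; 86.6 in hESC cells, 1.77 in MES cells, 0.18 in HEP cells and 0.32 in HPC cells), the calcium sensor gene VSNL1 (0.915) and the receptor phosphatase gene PTPRZ1 (1.29). Nearest to SOX17 were BMPER, a BMP-binding protein of endothelial cells (0.482; 0.08 in hESC cells, 28.0 in MES cells, 28.4 in HEP cells and 2.53 in HPC cells), the protease inhibitor gene SLPI (0.674) and the fibrillin gene FBN2 (0.891). Nearest to SOX7 were ECM1 (0.324), TPPP3 (0.327) and E-selectin, SELE (0.425), an adhesion molecule of activated endothelium with 8.09 in HEP cells, 0.75 in HPC cells and 0.01 in each of the earlier libraries. SOX4 lay nearest to MSANTD2 (0.0931), PAK1 and IGSF8, SOX11 to the receptor gene TGFBR1 (0.144), SGCE and GFPT1, and SOX12 to EXOC7 (0.0267), ZNF687 and SLC35A2. With the GC trend removed, USP44 and VSNL1 were again the nearest to SOX2, FBN2 was nearest to SOX17 in place of BMPER, AKR1C3 to SOX7 in place of ECM1, and the 3 nearest genes of SOX11 and SOX12 were others too, while SOX4 kept PAK1 among its 3.

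Marker genes were read as a check of the labels. Of the sort antigens, APLNR was at 344 in MES but also at 250 in HEP. CD34 was at 43.6 in HEP and 18.4 in HPC, and CD43 (SPN) at 24.4 in HPC and 0.97 in HEP. CD31 (PECAM1) was low, at 1.83 in HEP and 7.49 in HPC. PTPRC, the pan-leukocyte marker CD45, was at 0.04 in HPC. Of 5 smooth muscle and mesenchyme markers, only TAGLN and CNN1 had their highest values in MES and HEP, as SOX17 did. TAGLN was at 561 in MES and 233 in HEP, most of the sum over the 5 genes in those libraries. That sum was 111 in hESC cells, 608 in MES cells, 310 in HEP cells and 53.9 in HPC cells. ACTA2 was highest in HPC, at 19.2. COL1A1 was highest in HEP, at 51.3, but HPC (12.8) was above MES (12.1). PDGFRB was highest in MES, at 8.25, but HPC (7.66) was above HEP (6.3). The part of such cells in the level of SOX17 was not tested. On the list of 11 neural ectoderm genes, NES, OTX2, ZIC2 and FABP7 were the 4 that reached 5. NES was at 57.0 in hESC, 81.1 in MES and 61.5 in HEP, and OTX2 at 10.1 in hESC and 25.0 in MES. ZIC2 was at 8.02 in hESC and 7.96 in MES, and FABP7 at 12.1 in hESC. The other genes of the list, PAX6, SIX3, LHX2 and HES5 among them, were at 0.11 or less in every library. The 5 neural crest markers summed to between 11.1 and 17.8, nearly all of it ETS1, which other cell types also express.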

How the data were processed

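Messenger RNA of 4 libraries, 1 per group, was analysed from the deposited tables, each a normalised expression signal per gene with 2 decimals. The submitters' processing notes name hg19, RSEM, Bowtie and BWA. Their versions and roles, the annotation, use of strand and the RSEM measure are not stated there. Depth is unknown, so no counting interval is given. Each table held 17634 rows; 4 rows sharing names were left out. A value of 0 is written as listed at 0.

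Differences are log2 of (value + 1), later library minus earlier one. No test was possible, and genes were called by size (at least 2-fold, 5 or more in the higher library). A simulation of this procedure planted changes larger than the rule asks for, in genes above that minimum and with set noise. It therefore cannot speak to low values or to spread between replicates. GC content was the median over protein-coding transcripts of GENCODE 29, found for 17447 genes (99.0%). The trend was each library's median log2 deviation in 50 GC bins, averaged over 5 bins, and was divided out. Exon overlaps came from GENCODE 29 and promoters from RefSeq. The genes, the 7 gene lists and the marker lists were chosen with earlier results of these data known. List genes named are those with the widest range or a known tie to a SOX gene; singled-out others were chosen after their values were seen. Alternatives were pseudocounts of 0.1 and 5, no minimum, a minimum of 20, a fold of 4, and 5 other scalings. Python 3.11.15, pandas 2.3.3, NumPy 2.4.6 and SciPy 1.17.1 were used.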

Additional observations from a re-analysis of the deposited data

How the results depend on the processing

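No direction of a called SOX gene was reversed under any of the 10 alternatives. Only the 5 other scalings could have reversed one, since a changed pseudocount, minimum or fold cannot change a sign. Of 400 member differences, 382 kept their side of the rule of size (7 lost a call, 11 gained one). The counts of called members that moved by over 1.5 times were these. In HEP against MES, higher members numbered 2 (SOX7 and SOX18) with no minimum, with median-of-ratios and with upper quartile scaling, and 0 with a minimum of 20; lower members numbered 0 with a pseudocount of 5, a minimum of 20, a fold of 4, median-of-ratios scaling or the GC trend removed, in place of 1, SOX11. In HPC against hESC, no minimum gave 3 higher (SOX7, SOX17 and SOX18) and 4 lower (SOX3 and SOX11 added). In HPC against HEP, a minimum of 20 left 1 lower, SOX17. In MES against hESC, lower members numbered 2 with a pseudocount of 0.1 (SOX4 added, at -1.02) and 2 with no minimum (SOX3 added). The other 66 of 80 counts were within 1.5 times. Relative to hESC, median-of-ratios factors were 0.951 for MES, 0.640 for HEP and 0.653 for HPC, so scaling raises day 4 and day 7 values. Over all 19 SOX genes, SOXE held 2.84% in hESC cells, 2.18% in MES cells, 5.17% in HEP cells and 10.4% in HPC cells, more than its share among the 10, because SOX8 was added. No paired analysis was possible because each group is 1 library. Unknown depth limits every value under 1.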

Other observations

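Of 9 further SOX genes in the tables, 7 stayed under 1 in every library: SOX1, SOX5, SOX6, SOX10, SOX14, SOX21 and SOX30. SOX13, a SOXD gene, stood at 8.11 in hESC cells, 4.92 in MES cells, 3.53 in HEP cells and 1.49 in HPC cells, a stepwise order like that of SOX4, and was lower in HPC than in hESC by the rule of size (log2 difference -1.87). SOX8, a SOXE gene related to SOX9, stood at 3.19 in hESC cells, 0.45 in MES cells, 2.66 in HEP cells and 2.50 in HPC cells, so MES was the low library. SOX6, which in the mouse represses the embryonic globin gene in later red cells, was at 0.04 or less in every library. It was listed at 0 in HPC, where the embryonic globin gene HBE1 stood at 442 and HBZ at 17.3. SOX6 was also listed at 0 in hESC and MES, although HBE1 was only 0.39 and 0.47 there. Its 0.04 was the HEP value, beside HBE1 at 0.77. Whether SOX6 bears on the globin values was not tested.

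Several cartilage genes that SOX9 is known to drive did not share its order. SOX9 itself was at 1.09 or less in every library, where single reads may weigh heavily. COL2A1, the main collagen of cartilage, stood at 2.50 in hESC cells, 1.69 in MES cells, 11.4 in HEP cells and 44.8 in HPC cells, highest where SOX9 was lowest, at 0.10. COL9A2 was at 1.5, 44.3, 16.3 and 1.55 and COL9A3 at 17.3, 38.9, 19.2 and 1.23 in that order of libraries, both highest in MES, while COL9A1 was at 9.14 in hESC and under 1 in the others. The matrix link protein gene HAPLN1 stood at 1.19 in hESC cells, 58.4 in MES cells, 205 in HEP cells and 50.2 in HPC cells. Like SOX9, it was highest in HEP. ACAN, MATN1 and COMP, defining cartilage genes, were at 0.41 or less in every library.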
